A study of Mus musculus with 8 samples.

Results

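Adipocyte marker genes were measured in RNA from the dissected mouse knee, in the cartilage and underlying bone of the tibial plateau, with and without Anp32a. The set comprised 10 genes: the secreted adipokines Adipoq (adiponectin), Lep (leptin), Cfd (complement factor D, or adipsin) and Retn (resistin), the lipid droplet proteins Plin1 (perilipin 1) and Cidec, the fatty acid binding protein Fabp4, the nuclear receptor Pparg, the insulin-responsive glucose transporter Slc2a4 (GLUT4) and the carbonic anhydrase Car3. Members were chosen by gene symbol, as every probe set whose symbol in the authors' annotated table equalled one of these names. This matched 9 of the 10 genes with 16 probe sets, of 45037 probe sets in all. No probe set carried the symbol Plin1, which was not analysed here. Fabp4 and Car3 had 4 probe sets each, Slc2a4 had 2, and the others had 1. Probe sets of 1 gene share its RNA and are not independent, and they are numbered below by brightness, (1) being the brightest over the 8 arrays.

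The samples were articular cartilage with the subchondral bone beneath it, taken from the knee's tibial plateau. There were 4 ANP32A knockout mice and 4 wild-type C57BL/6 mice, all 8 weeks old, with 1 array per mouse. The labels used here name no strain for the knockout mice and do not say how the allele was made. Expression is given as RMA (robust multi-array average) values on a log2 scale, where a step of 1 is a doubling. Levels of different probe sets are not comparable, and every comparison below is of 1 probe set between arrays.

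White adipocytes store triglyceride in a single large lipid droplet and secrete hormones that report on energy stores. Pparg, with C/EBP family factors, drives their differentiation and directly activates genes such as Fabp4, Adipoq and Cidec. In long bones adipocytes occur in the marrow, and in the knee they form the infrapatellar fat pad next to the tibial plateau. Several genes used as adipocyte markers are also expressed in skeletal muscle: Slc2a4 carries glucose into both tissues after insulin, and Car3 is abundant in slow muscle fibres as well as in fat.

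The targeted gene was checked first. The Anp32a probe set with the lowest knockout values had 4.60 ± 0.49 in knockout and 9.88 ± 0.08 in wild-type arrays (SD, n = 4 each) and was called absent on all 4 knockout arrays. The other 2 Anp32a probe sets differed by -0.51 and -0.45. Cartilage was represented as labelled, with 8 of 8 cartilage markers called present on all 8 arrays, but so was skeletal muscle, with 10 of 10 fast muscle markers present on all 8 arrays. To place the adipocyte markers between these tissues, a muscle mean (the mean of Acta1, Ckm and Tnnt3, which encode skeletal actin, muscle creatine kinase and fast troponin T) and a fat mean were computed for each array. The fat mean was taken over 6 genes outside the marker set, namely Adig, Acvr1c, Thrsp, Pck1, Agpat2 and Aoc3. They came from a list of 8, of which Tusc5 and Adrb3 were left out as not called present on all 8 arrays. Pck1 was lowest on knockout 2, as was the muscle mean, so the fat mean may not be free of muscle.

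The fat mean was 8.41, 8.56, 8.48 and 9.64 on knockout arrays 1 to 4 and 8.55, 8.83, 9.53 and 9.20 on wild-type arrays 1 to 4. Knockout 4 and wild type 3 were highest, and the groups overlapped (8.77 ± 0.58 in knockout against 9.03 ± 0.43 in wild-type arrays, SD, n = 4 each, two-sided exact permutation p = 0.543). The muscle mean was 14.53, 13.48, 13.98 and 14.69 on knockout arrays 1 to 4 and 14.71, 14.73, 14.75 and 14.83 on wild-type arrays 1 to 4. Every knockout array was below every wild-type array, knockout 2 and knockout 3 the furthest (14.17 ± 0.55 in knockout against 14.75 ± 0.05 in wild-type arrays, SD, n = 4 each, two-sided exact permutation p = 0.0286, the smallest that 4 arrays against 4 allow). Knockout 4 (14.69) lay just below wild type 1 (14.71), and in Acta1, Ckm and Tnnt3 taken singly the groups overlapped. Of all probe sets 5.07% had all knockout arrays below all wild-type arrays. Between them the 2 means gave a Pearson r of 0.52 (exact permutation p = 0.157) and a Spearman rho of 0.55 (exact permutation p = 0.171) over the 8 arrays. Fewer cells of a type and less RNA per cell cannot be told apart in these bulk samples.

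Adipoq, Cfd and Retn had nearly the order of arrays of the fat mean. Adipoq, whose product raises insulin sensitivity, had 11.91, 12.14, 11.99 and 12.92 on knockout arrays 1 to 4, against 12.02, 12.24, 12.74 and 12.38 on wild-type arrays 1 to 4. Its highest value was on knockout 4 and its next highest on wild type 3, and the order of its 8 values was that of the fat mean (Spearman rho = 1, exact permutation p = 5e-05; Pearson r = 0.98, exact permutation p = 2.5e-05), both p-values being the smallest that 8 arrays allow. Without knockout 4 and wild type 3, the arrays farthest from the median fat mean, r was 0.95 (exact permutation p = 0.0014, the smallest that 6 arrays allow). The range of Adipoq over the 8 mice was 2.01-fold, although the genotypes differed by only -0.10 (SE 0.22).

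Cfd, a serine protease of the alternative complement pathway that adipocytes secrete, had 13.14, 13.38, 13.25 and 14.06 on the knockout arrays, against 13.37, 13.65, 14.18 and 13.82 on the wild-type arrays. Wild type 3 was highest and knockout 4 second. Retn, an adipocyte hormone in mice, had 9.53, 9.92, 9.75 and 10.92 on the knockout arrays, against 9.72, 9.95, 10.71 and 10.35 on the wild-type arrays. Knockout 4 was again highest, followed by wild type 3, and in both genes the groups overlapped. Pearson r with the fat mean was 0.98 for each of Cfd and Retn (exact permutation p = 0.00022 and 7.4e-05).

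Lep, the satiety hormone, was called absent on all 8 arrays. Its probe set had 6.71, 6.54, 6.59 and 7.94 on the knockout arrays, against 6.32, 6.49, 6.90 and 6.75 on the wild-type arrays. Knockout 4 stood apart from the other arrays here as well. Its r with the fat mean was 0.76 (exact permutation p = 0.0068; Spearman rho = 0.60, exact permutation p = 0.132) and was 0.33 (exact permutation p = 0.531) without knockout 4 and wild type 3, so that the relation rests on those arrays. Because no array gave a present call, these values are given without a fold between genotypes.

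Cidec, a lipid droplet protein that promotes fusion of droplets into the single large one of white fat cells, had 8.06, 8.20, 7.86 and 9.40 on the knockout arrays, against 8.34, 8.77, 9.28 and 8.91 on the wild-type arrays. Knockout 4 was highest, while knockout 1, 2 and 3 were below all 4 wild-type arrays. Its r with the fat mean was 0.97 (exact permutation p = 0.0002), and its range over the 8 arrays was 2.91-fold. The difference between knockout 4 and the mean of knockout 1, 2 and 3 was 1.36 for Cidec, 1.18 for Retn, 0.91 for Adipoq, 0.80 for Cfd and 0.72 for Fabp4 (1).

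**Figure D1:**
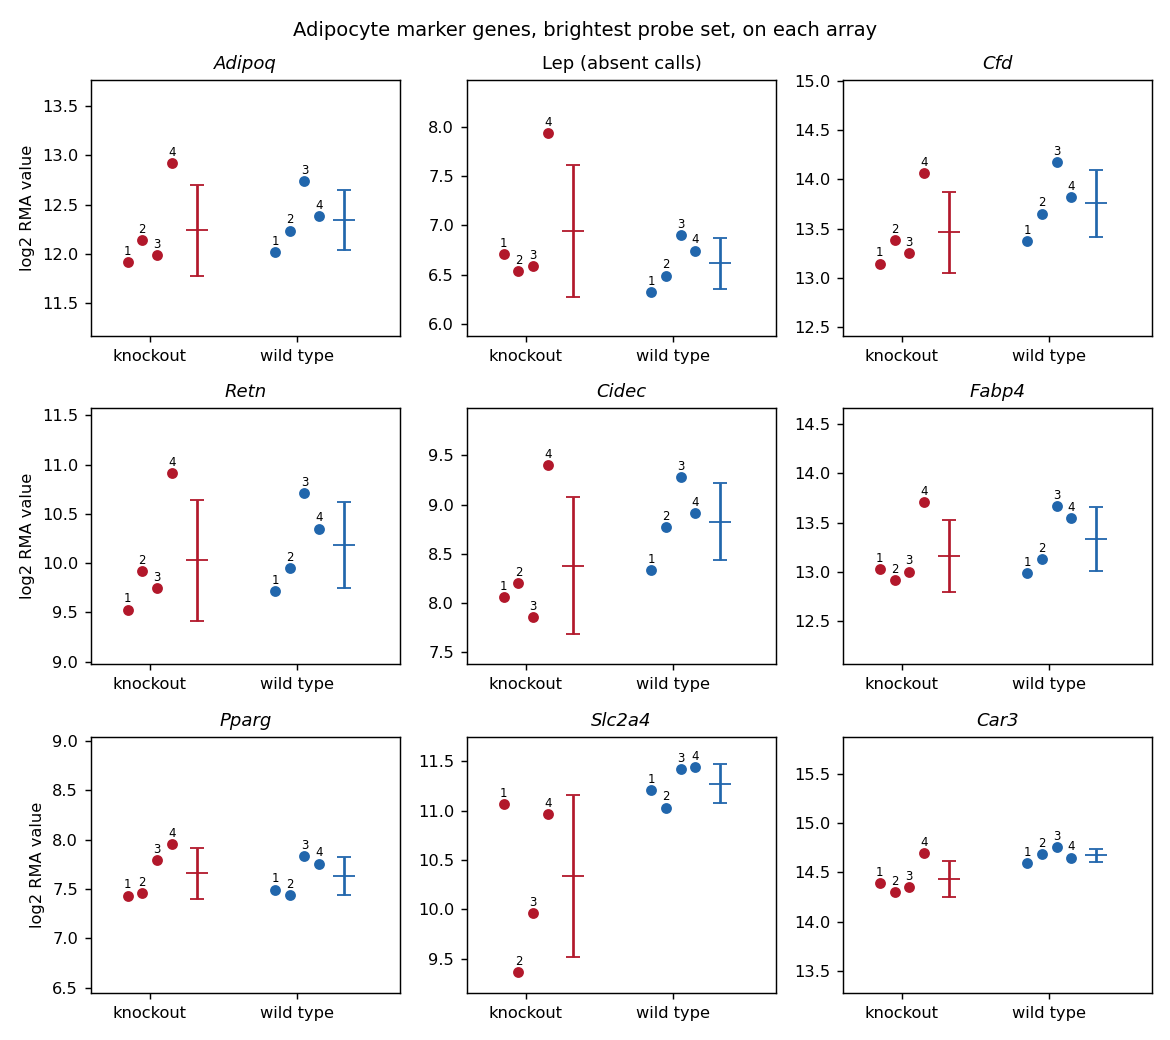
Log2 RMA value (y axis, the same span in every panel) of the brightest probe set of each of 9 adipocyte marker genes on 4 knockout arrays (red, left) and 4 wild-type arrays (blue, right). Numbers are array numbers, bars the mean ± SD of 4 arrays, and in Adipoq, Retn, Cidec and Fabp4 knockout 4 lies above the other knockout arrays and wild type 3 above the other wild-type arrays, while in Slc2a4 knockout 2 and knockout 3 lie lowest.

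The promoters of Adipoq, Cidec, Cfd and Retn are shown because these 4 genes moved together over the 8 arrays. The sequences are from RefSeq on GRCm38.p6, from 250 bases before to 50 bases after an annotated start, on the gene's strand. Capitals mark matches to TTNNGNAA, a core of the C/EBP binding site, searched on both strands. Overlaps with the other motifs searched were not removed. The second start of Cidec lies downstream of the first.
Adipoq, chr16:23146286-23146585, plus strand: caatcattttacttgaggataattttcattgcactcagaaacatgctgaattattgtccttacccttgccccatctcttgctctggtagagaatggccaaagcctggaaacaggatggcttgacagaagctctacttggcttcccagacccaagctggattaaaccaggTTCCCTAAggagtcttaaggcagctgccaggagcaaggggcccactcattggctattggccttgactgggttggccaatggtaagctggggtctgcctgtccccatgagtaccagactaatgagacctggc
Cidec, chr6:113435711-113436010, minus strand: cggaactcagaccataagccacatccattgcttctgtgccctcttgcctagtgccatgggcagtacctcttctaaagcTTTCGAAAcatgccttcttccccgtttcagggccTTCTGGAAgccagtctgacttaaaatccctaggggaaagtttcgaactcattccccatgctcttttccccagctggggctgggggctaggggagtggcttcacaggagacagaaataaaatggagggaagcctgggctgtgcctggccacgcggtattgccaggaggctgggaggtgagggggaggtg
Cidec, second start, chr6:113434715-113435014, minus strand: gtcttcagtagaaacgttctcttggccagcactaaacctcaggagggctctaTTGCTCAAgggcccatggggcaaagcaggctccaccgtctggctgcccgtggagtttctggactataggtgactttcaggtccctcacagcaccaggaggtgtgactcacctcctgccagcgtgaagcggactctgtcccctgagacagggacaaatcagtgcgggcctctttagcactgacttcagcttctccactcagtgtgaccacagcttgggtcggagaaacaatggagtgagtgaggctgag
Cfd, chr10:79890603-79890902, plus strand: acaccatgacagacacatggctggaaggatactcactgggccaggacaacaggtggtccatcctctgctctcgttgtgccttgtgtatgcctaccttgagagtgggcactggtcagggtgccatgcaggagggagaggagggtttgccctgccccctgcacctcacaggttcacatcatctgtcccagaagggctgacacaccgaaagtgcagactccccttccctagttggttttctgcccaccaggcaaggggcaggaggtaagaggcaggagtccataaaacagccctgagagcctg
Retn, chr8:3655520-3655819, plus strand: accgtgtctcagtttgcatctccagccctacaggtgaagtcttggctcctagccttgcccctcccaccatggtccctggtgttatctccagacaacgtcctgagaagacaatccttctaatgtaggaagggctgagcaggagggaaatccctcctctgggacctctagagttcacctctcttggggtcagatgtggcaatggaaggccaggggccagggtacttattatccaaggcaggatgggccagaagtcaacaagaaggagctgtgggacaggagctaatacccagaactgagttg
The motif was in the Adipoq window and in both Cidec windows, and these letters were in neither the Cfd nor the Retn window. RefSeq promoters were found for 7 of the 10 members, 10 windows in all, of which 6 held the motif, and 40.7% of all 32851 promoters in the same table held it. The E-box CANNTG was in 8 of the 10 and in 72.3% of all promoters. AGGTCA, a core bound by nuclear receptors, was in 2 of the 10, both of them starts of Pparg, and in 16.3% of all promoters. All motifs were searched on both strands, and a match is a description of the sequence only.

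Fabp4 (aP2), which shuttles fatty acids inside adipocytes, had 13.03, 12.92, 13.00 and 13.71 on the knockout arrays by probe set (1), against 12.99, 13.13, 13.66 and 13.55 on the wild-type arrays. Knockout 4 and wild type 3 and 4 were the 3 highest, and the groups overlapped. Probe set (2) gave the same picture, with 12.47, 12.41, 12.41 and 13.10 on the knockout arrays, against 12.64, 12.54, 13.12 and 13.10 on the wild-type arrays.

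The 2 dimmer Fabp4 probe sets differed from the brighter 2. Probe set (3) had 8.32, 8.46, 8.85 and 9.45 on the knockout arrays, against 9.03, 9.23, 10.21 and 9.95 on the wild-type arrays. Probe set (4) had 7.60, 7.76, 8.02 and 8.22 on the knockout arrays, against 8.44, 8.36, 9.47 and 9.09 on the wild-type arrays. In probe set (4) all knockout arrays were below all wild-type arrays (two-sided exact permutation p = 0.0286), with a difference of -0.94 (SE 0.24), while in probe set (1) the difference was -0.17. Probe set (3) had a Spearman rho of 0.86 with the fat mean and 0.83 with the muscle mean (exact permutation p = 0.0107 and 0.0154). Probe set (4) had 0.62 with the fat mean and 0.88 with the muscle mean (exact permutation p = 0.115 and 0.0072). Pearson r was higher with the fat mean in both, 0.84 against 0.64 and 0.69 against 0.60. Fabp4 is also expressed by capillary endothelium and macrophages. The mean of 8 endothelial markers was 8.88 to 9.22 on knockout and 8.97 to 9.31 on wild-type arrays, and that of 8 macrophage markers was 9.77 to 10.23 on knockout and 9.95 to 10.15 on wild-type arrays. All 16 of these markers were called present on all 8 arrays, and 0 passed the test between genotypes (limma), with 3 at an unadjusted p under 0.05. These 3 were macrophage markers, Csf1r (0.37) and Cd68 (0.36) higher and Cd163 (-0.50) lower in knockout arrays. Of all probe sets 9.53% were higher and 8.74% lower at that level. Their part in the Fabp4 values was not tested.

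Pparg, the master regulator of fat cell differentiation, varied little. It had 7.43, 7.46, 7.79 and 7.96 on the knockout arrays, against 7.49, 7.44, 7.83 and 7.76 on the wild-type arrays. Its groups overlapped, and its range over the 8 arrays was 1.44-fold. Its r with the fat mean was 0.76 (exact permutation p = 0.0386) and fell to 0.37 (exact permutation p = 0.575) without knockout 4 and wild type 3, so that the relation rests on those arrays.

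Slc2a4 had another order of arrays. Probe set (1) had 11.06, 9.36, 9.96 and 10.96 on the knockout arrays, against 11.21, 11.03, 11.42 and 11.44 on the wild-type arrays. Probe set (2) had 9.03, 7.63, 7.92 and 8.93 on the knockout arrays, against 9.54, 9.18, 9.49 and 9.50 on the wild-type arrays. Knockout 2 and knockout 3, the arrays with the lowest muscle mean, were lowest in both, and knockout 4 did not stand out. In probe set (2) every knockout array was below every wild-type array (8.38 ± 0.71 in knockout against 9.43 ± 0.17 in wild-type arrays, SD, n = 4 each, difference -1.05, two-sided exact permutation p = 0.0286), and in probe set (1) knockout 1 was just above wild type 2 (10.34 ± 0.82 in knockout against 11.28 ± 0.19 in wild-type arrays, SD, n = 4 each, difference -0.94, two-sided exact permutation p = 0.0571). Probe set (1) had an r of 0.98 with the muscle mean (exact permutation p = 0.0013; Spearman rho = 0.88, exact permutation p = 0.0072) and of 0.49 with the fat mean (exact permutation p = 0.212). Without knockout 2 and knockout 3, r with the muscle mean was 0.63 (exact permutation p = 0.188), so that the pooled relation rests on those arrays.

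Car3 was split between its probe sets. Probe set (1) had 14.39, 14.30, 14.35 and 14.70 on the knockout arrays, against 14.59, 14.69, 14.76 and 14.65 on the wild-type arrays. Probe set (2) had 12.75, 12.68, 12.59 and 13.50 on the knockout arrays, against 13.39, 13.66, 13.55 and 13.30 on the wild-type arrays. In both, knockout 1, 2 and 3 were below all wild-type arrays and knockout 4 lay among the wild-type arrays. These probe sets had r values of 0.85 and 0.79 with the muscle mean (exact permutation p = 0.0015 and 0.008) and of 0.80 and 0.69 with the fat mean (exact permutation p = 0.0238 and 0.0556). Without knockout 2 and knockout 3, r with the muscle mean was 0.79 and 0.71 (exact permutation p = 0.0958 and 0.165). Without knockout 4 and wild type 3, r with the fat mean was 0.72 and 0.61 (exact permutation p = 0.104 and 0.208).

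Probe set (3) of Car3 had 10.85, 11.06, 11.22 and 11.66 on the knockout arrays, against 11.03, 11.06, 12.15 and 11.72 on the wild-type arrays. Probe set (4) had 9.57, 9.80, 9.95 and 10.51 on the knockout arrays, against 9.73, 9.84, 11.04 and 10.66 on the wild-type arrays. Wild type 3 was highest in both and the genotypes overlapped. Their r values were 0.89 and 0.90 with the fat mean (exact permutation p = 0.0073 and 0.0078) and 0.40 and 0.42 with the muscle mean (exact permutation p = 0.349 and 0.32). Wild type 3 was also the array with the highest mean over 6 slow muscle markers, 9.53, against 6.82 to 7.67 on the knockout arrays and 7.14 to 7.97 on the other wild-type arrays. The slow myosin Myh7 had 6.32, 6.03, 6.44 and 6.42 on the knockout arrays, against 6.43, 6.02, 9.07 and 6.29 on the wild-type arrays, and was called present only on wild type 3. Of these 6 markers 2 were present on all 8 arrays, and Tnni1 was absent on all 8. The part of slow muscle in the Car3 values was not tested.

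**Figure D2:**
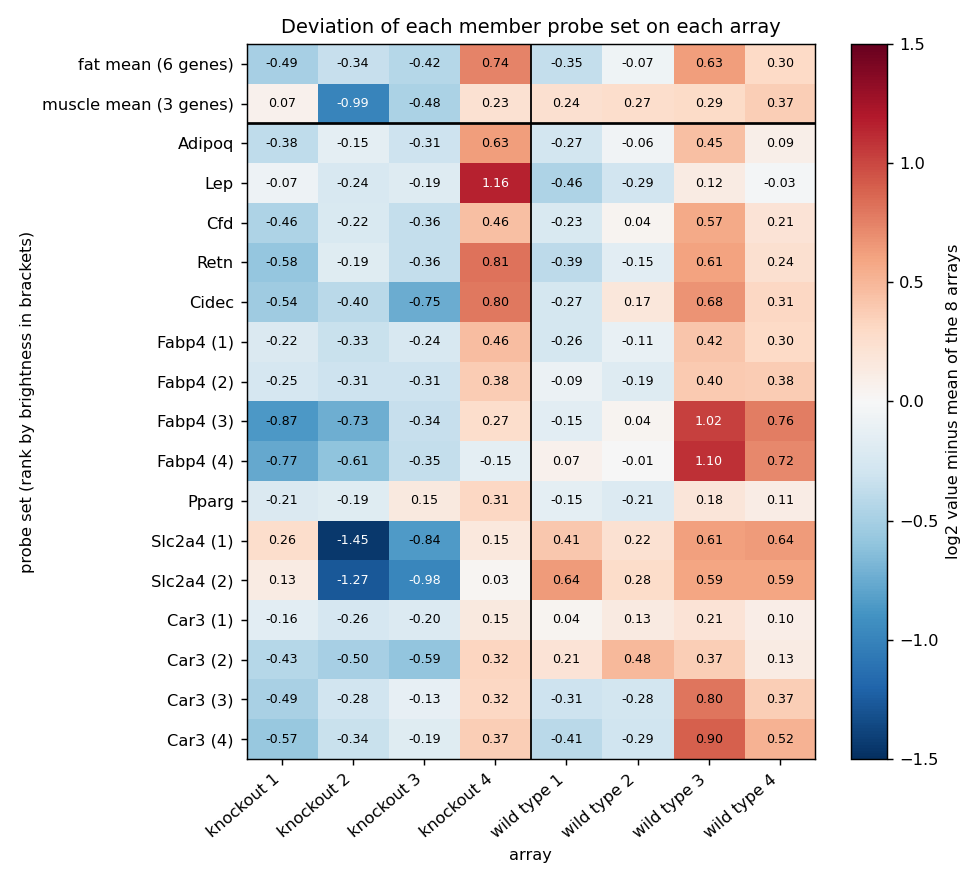
Log2 value of each member probe set minus its mean over 8 arrays (colour and number), with 1 column per array, knockout left of wild type, and the fat and muscle means in the top 2 rows. Adipoq, Cfd, Retn, Cidec and Fabp4 (1) and (2) are raised on knockout 4 and wild type 3 as the fat mean is, and both Slc2a4 rows are lowest on knockout 2, as the muscle mean is.

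Which members followed which tissue was tested by regressing every probe set on the fat mean or the muscle mean with genotype as a second term (limma, with Benjamini-Hochberg adjustment over all 45037 probe sets and a threshold of 0.05). On the fat mean, 10 of the 16 member probe sets had a positive slope that passed, against 0.415% of all probe sets. They comprised Adipoq, Cfd, Retn, Cidec, Lep, Fabp4 (1), (2) and (3), and Car3 (3) and (4). By the brightest probe set of each gene 6 of 9 passed, Lep among them. The slope, in log2 units of the gene per log2 unit of the fat mean, was 1.07 for Cidec (SE 0.10, limma adjusted p = 0.0026), 1.03 for Retn (SE 0.08, limma adjusted p = 0.0022), 0.75 for Adipoq (SE 0.07, limma adjusted p = 0.0026), 0.73 for Cfd (SE 0.07, limma adjusted p = 0.0027) and 0.65 for Fabp4 (1) (SE 0.08, limma adjusted p = 0.0044). The slope of Lep was 0.94 (limma adjusted p = 0.0051), from a probe set without present calls. Pparg had 0.36 (SE 0.10, limma adjusted p = 0.128) and Slc2a4 (1) had 0.49 (SE 0.35, limma adjusted p = 0.555), and neither passed. The median slope of the 16 was 0.69, against 0.01 over all probe sets.

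These fat slopes depended on knockout 4 for their calls. Without it 0 of the 16 passed, when 12 of all probe sets passed with either sign. The slopes without it were 0.71 for Adipoq (limma adjusted p = 0.111), 0.79 for Cfd (limma adjusted p = 0.0816), 1.05 for Retn (limma adjusted p = 0.0655) and 0.89 for Cidec (limma adjusted p = 0.126). Of the other probe sets, Fabp4 (3) had 1.27, Fabp4 (4) 1.16, Car3 (3) 1.22 and Car3 (4) 1.44, while Car3 (1) had 0.12, Car3 (2) 0.016, Slc2a4 (1) 0.090 and Slc2a4 (2) -0.12. Without wild type 3, 6 of the 16 passed, Fabp4 (2) and (3) and Car3 (3) and (4) being lost. Car3 (3) and (4) and Fabp4 (3) also missed the threshold without wild type 1, and Car3 (3) without wild type 4, whereas Pparg passed without knockout 3 (limma adjusted p = 0.0363).

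On the muscle mean only the 2 Slc2a4 probe sets passed, 2 of 16, against 1.91% of all probe sets. Their slopes were 1.46 (SE 0.15, limma adjusted p = 0.0012) and 1.22 (SE 0.17, limma adjusted p = 0.0066). Car3 (1) had 0.25 (SE 0.11, limma adjusted p = 0.381) and Car3 (2) had 0.49 (SE 0.22, limma adjusted p = 0.389). Without knockout 2 the second Slc2a4 probe set had a larger slope of 1.54 with a limma adjusted p of 0.0542. Without knockout 2 and knockout 3 together, an alternative chosen after seeing the data, neither passed, with slopes of 0.61 and -0.08 (limma adjusted p = 0.907 and 0.99).

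With both means and genotype in 1 fit, the members kept apart. The 10 member probe sets that passed on the fat mean alone passed on it again, against 0.366% of all probe sets, and Slc2a4 (1) had a fat slope of -0.05 (limma adjusted p = 0.925) beside a muscle slope of 1.49 (limma adjusted p = 0.004). Slc2a4 (2) had a muscle slope of 1.28 (limma adjusted p = 0.0157), and no other member passed on muscle, against 1.1% of all probe sets. Adipoq had a fat slope of 0.78 (limma adjusted p = 0.0029) and a muscle slope of -0.07 (limma adjusted p = 0.852). Car3 (1) passed on neither, with 0.19 on fat (limma adjusted p = 0.356) and 0.14 on muscle (limma adjusted p = 0.649). By Pearson r alone, 6 of the 8 members with present calls were nearer the fat mean, and Slc2a4 and Car3, each by its brightest probe set, were nearer the muscle mean. For Car3 (1) this order turned with each genotype centred on its own mean, where r was 0.89 with fat and 0.73 with muscle. Car3 (2), also nearer muscle by r, turned likewise, with 0.75 with fat and 0.61 with muscle. Uncentred, the Spearman rho of Car3 (1) was 0.79 with fat and 0.76 with muscle. Car3 (3) and (4) were nearer fat by r without centring. In all 32 relations with the 2 means were computed. The limma adjustment over all probe sets corrects the slopes for multiple tests. The exact permutation p-values of the correlations are not adjusted.

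**Figure D3:**
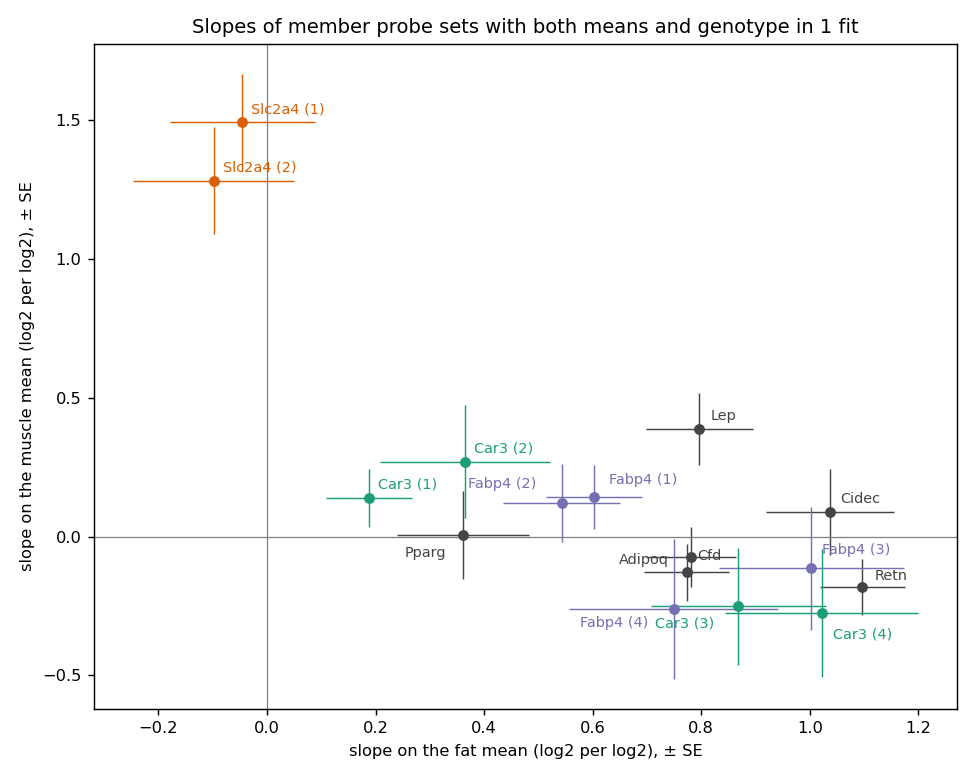
Slope of each member probe set on the fat mean (x axis) and on the muscle mean (y axis), both in log2 per log2, from 1 fit with genotype as a term over 8 arrays, with bars of ± SE. Both Slc2a4 points lie near 0 on the fat axis at 1.49 and 1.28 on the muscle axis, and Cidec and Retn lie above 1 on the fat axis near 0 on the muscle axis.

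**Figure D4:**
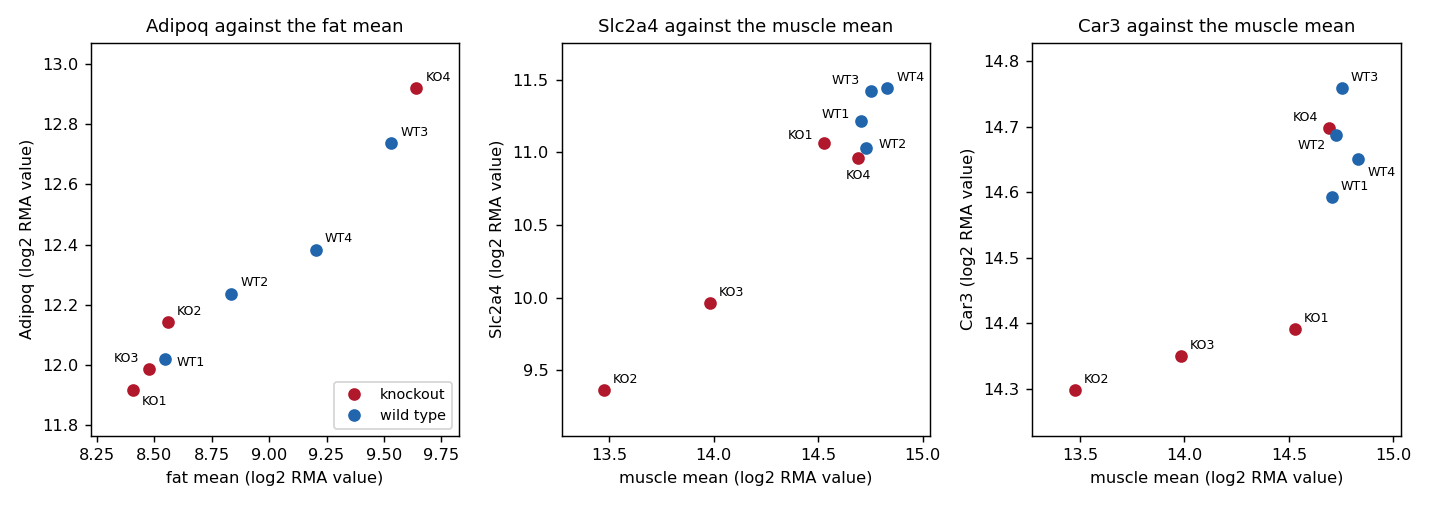
Log2 RMA value of Adipoq against the fat mean (left), and of Slc2a4 (1) and Car3 (1) against the muscle mean (middle and right), 1 point per array, knockout in red and wild type in blue. Adipoq follows the fat mean over both genotypes, whereas the spread of Slc2a4 with the muscle mean comes largely from knockout 2 and knockout 3.

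Between genotypes, 0 of the 16 member probe sets passed the test (limma, adjusted over all probe sets, threshold 0.05), against 0.0533% of all probe sets. At an unadjusted p under 0.05 there were 6, all lower in knockout arrays: Fabp4 (3) and (4), Slc2a4 (1) and (2), and Car3 (1) and (2). Of all probe sets 8.74% were lower at that level. All 4 knockout arrays lay below all 4 wild-type arrays in 2 of the 16, Fabp4 (4) and Slc2a4 (2), against 5.07% of all probe sets. The differences were lower in sign for 14 of the 16, with a median of -0.29, against 0.01 over all probe sets. Since several of these are probe sets of 1 gene, the count by gene is smaller: by the brightest probe set, 7 of 9 were lower in sign, with a median of -0.17. Of these 9, 2 had an unadjusted p under 0.05, and in 0 did all knockout arrays lie below all wild-type arrays.

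Among the adipokines Adipoq differed by -0.10 (95% interval -0.60 to 0.39, limma adjusted p = 0.862), Retn by -0.15 (SE 0.30, limma adjusted p = 0.843) and Cfd by -0.29 (SE 0.21, limma adjusted p = 0.517). Cidec differed by -0.44 (SE 0.31, limma adjusted p = 0.502) and Pparg by 0.03 (limma adjusted p = 0.939). The differences nearest the threshold were those of Fabp4 (4), -0.94 (SE 0.24, limma adjusted p = 0.14), Slc2a4 (2), -1.05 (SE 0.29, limma adjusted p = 0.147), and Car3 (2), -0.59 (SE 0.18, limma adjusted p = 0.162).

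Knockout 4 decided these calls, and not for these members alone. Without it, calls over all probe sets rose from 24 to 3579 in either direction. The share called lower alone is not given here. Of the 16 member probe sets 6 were then called lower, against 7.95% of all probe sets called in either direction. They were Cidec (-0.78, limma adjusted p = 0.0432), Fabp4 (3) (-1.06, limma adjusted p = 0.0479) and (4) (-1.05, limma adjusted p = 0.0416), Slc2a4 (2) (-1.23, limma adjusted p = 0.0361) and Car3 (1) (-0.33, limma adjusted p = 0.0318) and (2) (-0.80, limma adjusted p = 0.0173). Once the muscle mean was added to the fit of all 8 arrays, the difference of Slc2a4 (1) was -0.08 (limma adjusted p = 0.907) and that of Slc2a4 (2) was -0.34 (limma adjusted p = 0.797). Such a shift was not particular to Slc2a4. In the same fit Cidec had -0.02 (limma adjusted p = 0.993), Car3 (1) -0.09 (limma adjusted p = 0.862) and Car3 (2) -0.31 (limma adjusted p = 0.799). Fabp4 (3) had -0.54 (limma adjusted p = 0.803) and Fabp4 (4) -0.82 (limma adjusted p = 0.797). The cause of these shifts was not tested.

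**Figure D5:**
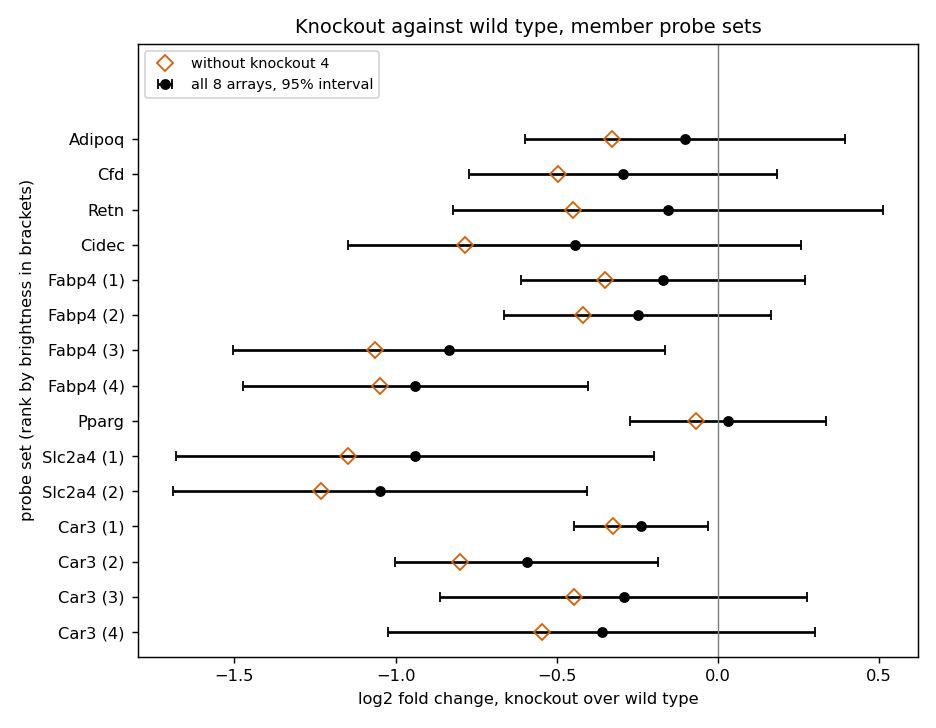
Log2 fold change of knockout over wild type (x axis) for the 15 member probe sets with present calls, with 95% intervals over all 8 arrays (black) and the value without knockout 4 (orange diamonds). Adipoq, Cfd, Retn, Cidec and Pparg have intervals that include 0, and each diamond lies left of its black point.

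Other genes of the adipocyte programme were described from 5 lists outside the marker set, covering adipogenic transcription factors, lipid droplet and lipolysis proteins, lipogenic enzymes, fatty acid uptake and adipokine or insulin signalling. They held 56 entries measured, 50 of them present on all 8 arrays. In the genotype comparison 0 passed, 7 were lower and 2 higher at an unadjusted p under 0.05 (8.74% and 9.53% of all probe sets), and the median difference was -0.13, against 0.01 over all named genes. The genes nearest the threshold were Lpin1, a phosphatidate phosphatase (-0.98, limma adjusted p = 0.15), Gpd1, the enzyme that makes glycerol-3-phosphate (-0.90, limma adjusted p = 0.182), and Dgat1, which forms triglyceride (0.38, limma adjusted p = 0.135). Plin2, a droplet protein of many cell types, had a difference of 0.25 (limma adjusted p = 0.186), and Cdh13, a receptor for adiponectin, had -0.52 (limma adjusted p = 0.187).

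Of 53 entries outside the fat mean, 11 had a positive fat slope that passed and 8 a positive muscle slope that passed, against 129 and 531 of 20666 named genes, and the others passed on neither. These fits held 1 mean at a time. On the fat mean passed lipogenic enzymes, Fasn (slope 0.95, limma adjusted p = 0.0053), Acaca (0.65, limma adjusted p = 0.0127), Scd1 (0.59, limma adjusted p = 0.0089), Dgat2 (0.82, limma adjusted p = 0.0042) and Me1 (0.74, limma adjusted p = 0.0293), together with hormone-sensitive lipase Lipe (0.76, limma adjusted p = 0.0038), the droplet proteins Cidea and Plin4 (Plin4 with 0.84 on fat, limma adjusted p = 0.0477, and 1.09 on muscle, limma adjusted p = 0.0577), the adrenergic receptor Adrb3, the transcription factor Cebpa and the lipoprotein lipase anchor Gpihbp1. On the muscle mean passed Lpin1 (slope 1.21, limma adjusted p = 0.0025), Gpd1 (1.31, limma adjusted p = 0.0059), Gpam, Acsl1 (0.82, limma adjusted p = 0.0056), Fabp3, the fatty acid binding protein of heart and muscle (1.94, limma adjusted p = 0.0058), Vldlr, Aqp7 and Plin5. These genes were named for their slopes, after the values were seen. Adrb3 was called present on only 3 of the 8 arrays and Plin5 on 6. Lpin1 had 10.93, 9.65, 9.86 and 10.98 on the knockout arrays, against 11.36, 11.30, 11.30 and 11.39 on the wild-type arrays, lowest on knockout 2 and knockout 3 as Slc2a4 was. Dgat2 had 9.19, 9.02, 8.91 and 10.12 on the knockout arrays, against 9.13, 9.35, 9.79 and 9.59 on the wild-type arrays, highest on knockout 4 and wild type 3 as Adipoq was.

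Ucp1, the uncoupling protein that defines brown fat, was called absent on all 8 arrays. Of 8 thermogenic genes 3 passed, all on the muscle mean: Ppargc1a (slope 1.60, limma adjusted p = 0.0143), Cox7a1 (1.78, limma adjusted p = 0.004) and Cox8b (1.65, limma adjusted p = 0.0022), which also serve mitochondria in muscle. The other 5 passed on neither mean, and over the 8 the median slope was 0.29 on fat and 0.13 on muscle.

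Marker lists of other cells were set beside these values. The mean of 7 erythroid markers was 10.52, 10.09, 10.30 and 9.25 on the knockout arrays and 9.95, 9.43, 8.54 and 9.32 on the wild-type arrays, lowest on wild type 3 and knockout 4. Of these 7, 6 had a negative fat slope that passed, such as Alas2, the first enzyme of haem synthesis in red cell precursors (-1.15, limma adjusted p = 0.0048), and Hba-a1 was absent on all 8 arrays. Between genotypes the 7 had a median difference of 0.82, and 4 were higher at an unadjusted p under 0.05, with 0 past the adjusted test (limma). Of all probe sets 1000 had a negative fat slope that passed. The means of 8 osteoclast markers (10.94 to 11.32 on knockout and 10.51 to 10.82 on wild-type arrays) and of 7 bone markers (11.90 to 12.17 on knockout and 11.67 to 11.76 on wild-type arrays) did not overlap between genotypes, and 6 of the 8 and 4 of the 7 were higher at an unadjusted p under 0.05, though 0 passed the adjusted test. Of the 10 fast muscle markers all were lower in sign, all had an unadjusted p under 0.05 and 0 passed. For comparison, 9.53% of all probe sets were higher and 8.74% lower at an unadjusted p under 0.05. The share of probe sets with all knockout arrays above all wild-type arrays is not given here. The part of these cells in the adipocyte marker values was not tested.

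Among 11623 named genes outside the marker set and present on all 8 arrays, those whose values ran most like the mean of Adipoq and Cidec over the 8 arrays were Vat1l (r = 0.996), Gstz1 (r = 0.988), Cyp2f2 (r = 0.981), A530016L24Rik (r = 0.976), Nfia (r = 0.975), Pcx (r = 0.975), Acvr1c (r = 0.968), Apbb2 (r = 0.965), Dgat2 (r = 0.964) and Glb1l2 (r = 0.963). Pcx encodes pyruvate carboxylase, which feeds fatty acid synthesis. Among the nearest to Slc2a4 (1) were Txlnb (r = 0.998) and Neb, Pfkm and Asb14 (r = 0.997 each), where Neb encodes a giant protein of the muscle sarcomere and Pfkm the muscle phosphofructokinase. Nearest to Car3 (1) were Arl8b (r = 0.981), Tcf25 (r = 0.978), Auts2 (r = 0.972), Acta2, the smooth muscle actin (r = 0.971), and Dhrs7b (r = 0.970). These r values describe 8 arrays that share their genotype groups and tissue make-up, and they were ranked over many genes, so no test is given.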

How the data were processed

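RNA from 8 mice (4 ANP32A knockout, 4 wild type), taken from tibial plateau cartilage with its bone, was hybridised to 1 Affymetrix array each. The deposited log2 values per probe set were made with RMA, per the submitters' processing notes, which corrects background, quantile-normalizes the arrays and summarises probes. The array design and versions are not named in the sources used here. Per the file headers, the annotated table adds symbols, detection calls and the authors' log2 fold changes and p-values. Those were recomputed, and log10 p differed by at most 0.00114. Its 64 rows without an identifier were not used. Between 57.6% and 60.1% of probe sets were called present per array. Precision is limited by having 4 arrays per group.

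Each probe set was fitted in R 4.3.3 with limma 3.58.1 (two-sided moderated tests from lmFit and eBayes), by genotype alone, or by the muscle or fat mean with genotype as a second term. P-values were adjusted by Benjamini-Hochberg over all 45037 probe sets, with a threshold of 0.05 and no filter. Correlations over arrays were tested over all 40320 orders, and single values over all 70 splits of 8 arrays into 4 and 4 (SciPy 1.17.1). A gene outside the set was represented by its brightest probe set (20666 named genes). The fits were also run on simulated data in which probe sets varied independently, and the outcome is not given here. Effects shared by the probe sets of an array were not simulated, so that run does not bear on the dependence on single arrays. The rule for named genes took all members with every probe set, the genes of both means, the 2 genes of smallest p and the 1 of highest level from each list, and the genes nearest in r, of which 1 is not reported here. Further genes are named as chosen after their values were seen. The members and lists were chosen with earlier results of these data known. Alternatives left out each array, added a replicate block or a tissue mean, and changed the filter, normalization, weights or probe set rule.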

Additional observations from a re-analysis of the deposited data

Results flagged for a closer look

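A highest or lowest array was set against the other 3 of its genotype by Dixon's ratio for 36 groups of 4 values, the 16 member probe sets and both tissue means, and 5 exceeded the 95% critical value for 4 values. Chance gives about 1 in 20 such groups. Knockout 4 was far above the other knockout arrays in Lep, at 7.94 (7.93577 before rounding) from a probe set called absent throughout, in Fabp4 (1) at 13.71, in Fabp4 (2) at 13.10 and in the fat mean at 9.64. Wild type 2 was far below the other wild-type arrays in Slc2a4 (2), at 9.18. The flagged Lep and Fabp4 probe sets are among those with a positive slope on the fat mean, so these values on knockout 4 are not independent of each other.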

How the results depend on the processing

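The count of members called between genotypes was 0 under every alternative run except without knockout 4, and leaving out single arrays gave 0 to 6 of 16. Leaving out single arrays gave 0 to 11 of 16 on the fat mean and 1 to 2 of 16 on the muscle mean, and without knockout 2 and 3 together 0 passed on muscle. The fat mean of Adipoq and Cidec, with the gene itself left out, gave 7 of 16. Members nearer fat than muscle stayed within 1.5 times the reported count in 14 alternatives. The reported count was most of the members, so no higher count could leave that band. This therefore says little about stability. Deviations of same-numbered arrays correlated at 0.0652, 0.511, -0.339 and 0.303 for numbers 1 to 4, so the numbers were not taken to pair the samples, and with a replicate block 0 passed between genotypes, 1 on fat and 0 on muscle. Among single members, 6 calls between genotypes were gained, all without knockout 4, while 28 calls on fat were lost and 2 gained, and 5 on muscle were lost and 1 gained. The cause of these changes was not tested beyond the arrays left out.

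Differences and slopes that turned sign were all uncalled, apart from the muscle slope of Slc2a4 (2), which was -0.084 without knockout 2 and 3. The genotype difference in a fit with the muscle mean was 0.13 for Adipoq, Retn and Fabp4 (1) and 0.016 for Fabp4 (2), with the fat mean 0.092 for Adipoq and 0.11 for Retn, with both 0.055, 0.022 and 0.069 for Adipoq, Retn and Fabp4 (1), and without knockout 2 and 3 0.073, 0.039 and 0.033 for the same genes. Pparg had -0.0047 with array weights. Leaving out single arrays gave -0.33 to 0.028 for Adipoq, -0.45 to 0.021 for Retn and -0.069 to 0.11 for Pparg.

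Muscle slopes with both means in 1 fit were -0.074 for Adipoq, -0.13 for Cfd, -0.18 for Retn, -0.11 and -0.26 for Fabp4 (3) and (4), and -0.25 and -0.28 for Car3 (3) and (4), and with the replicate block -0.073 for Fabp4 (4). Leaving out single arrays they ran from -0.18 to 0.997 for Adipoq, -0.18 to 0.87 for Cfd, -0.29 to 1.23 for Retn, -0.069 to 1.77 for Cidec, -0.023 to 0.90 for Fabp4 (3), -0.072 to 0.43 for Fabp4 (4), -0.11 to 0.56 for Car3 (3) and -0.10 to 0.68 for Car3 (4). Fat slopes of Slc2a4 (1) and (2) were -0.045 and -0.098 in the fit with both means, and that of (2) was -0.019 without knockout 2 and 3 and -0.12 to 0.64 leaving out single arrays.

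Quantile normalization within RMA would mask a change shared by most genes, and the 4 arrays per group limit the precision. The calls on the fat mean were lost without knockout 4, and the muscle slopes of Slc2a4 depended on knockout 2 and 3.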
